A study of Brassica napus with 17 samples.

Results

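Heat-stressed microspore cultures of Brassica napus that had received trichostatin A (TSA) were compared between day 8 and day 4 of culture. The comparison used 5 of the 17 RNA-seq libraries of the series, 2 at day 8 and 3 at day 4, chosen by their labels. All libraries came from the line DH12075 carrying a LEC1-GFP reporter, and cultures started from late unicellular microspores. Per the labels, both groups were heated at 33 °C for 24 hours in the presence of TSA, which was then removed, and they stayed at 25 °C for 3 more days (day 4) or 7 more days (day 8). The TSA dose of the day 8 cultures was 0.05 µM in the title and in the treatment field. For the day 4 cultures the title gives 0.5 µM and the treatment field 0.05 µM, so the dose may differ between the groups as well as the day. The other groups, 3 libraries each, were untreated microspores at day 0, heat-only cultures at day 2 and day 4 (no TSA), and heat plus TSA cultures at day 2 (0.5 µM). They are used here to place the levels of genes that differed between the compared groups.

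A microspore normally develops into a pollen grain. In B. napus, a heat stress can divert it to form a haploid embryo in culture, and per the labels heat alone served for this and heat with TSA served to induce callus. TSA inhibits histone deacetylases, enzymes that remove acetyl groups from histones and are generally associated with lower transcription, so their inhibition raises histone acetylation. TSA had been removed days before both harvests. No heat-only culture of day 8 was analysed here, so time in culture and the earlier TSA treatment cannot be told apart in the comparison. The labels name the same sequencing run for TSA day 8, TSA day 2 and day 0 and none for TSA day 4, so run and group cannot be told apart either. Levels at TSA day 2 are therefore given beside the main results.

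Total counts were 31407037, 15275408 and 24255663 in the day 4 libraries and 14142177 and 21839207 in the day 8 libraries, within a range of 2716279 to 31407037 over the series. Levels are CPM (counts per 1000000, with TMM-scaled library sizes), and 3 counts, taken as the limit of detection, stood for 0.0835, 0.176 and 0.109 CPM at day 4 and 0.159 and 0.115 CPM at day 8. The 2 day 8 libraries differed from each other more than day 4 libraries did. Of 17172 genes at 10 CPM or more at day 8, 1744 (10.2%) differed by over 1 log2 unit between the replicates, and in the 3 pairs of day 4 libraries 1.21% to 2.68% did. In the labels, day 8 has microspores with embryogenic cells as its cell type and late unicellular microspores as its stage, and day 4 has these entries the other way round. Neither entry could be checked against marker genes, because the IDs of these genes carry no names in the sources used here. The samples are bulk RNA, so fewer cells of a type and less RNA per cell cannot be told apart.

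Expression changed widely between the days, and genes that fell outnumbered genes that rose. Of 64330 genes tested, 37574 (58.4%) were called at an adjusted p under 0.05 (edgeR quasi-likelihood test, Benjamini-Hochberg). At day 8, 15047 (23.4%) were higher and 22527 (35.0%) lower. Changes of at least 1 log2 unit were called for 29354 genes (45.6%), with 10149 (15.8%) higher and 19205 (29.9%) lower. The excess of falling genes was greater among large fitted changes. By at least 2 log2 units 4799 genes (7.46%) were higher and 14498 (22.5%) lower. By at least 4 log2 units 1848 genes (2.87%) were higher and 8552 (13.3%) lower, and by at least 6 units 963 (1.50%) were higher and 3778 (5.87%) lower. The median change was 1.36 log2 units among genes called higher and -2.99 among genes called lower. Fitted changes of genes at or near 0 counts in 1 group carry no exact size. This bears on the counts at 4 and 6 units and on these medians. Of the genes changed by at least 2 units, 4181 rising ones reached 1 CPM at day 8, and 9176 falling ones had 1 CPM or more at day 4. At 10 CPM or more these numbers were 1659 and 3092. Both day 8 libraries lay above all 3 day 4 libraries for 18357 genes (28.5% of those tested) and below them for 27003 (42.0%). Another scaling moved the directions somewhat: genes higher at day 8 made up 40.0% of calls under TMM and 45.3% under library totals, and the median change of all genes was -0.288 and -0.133 log2 units.

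**Figure D1:**
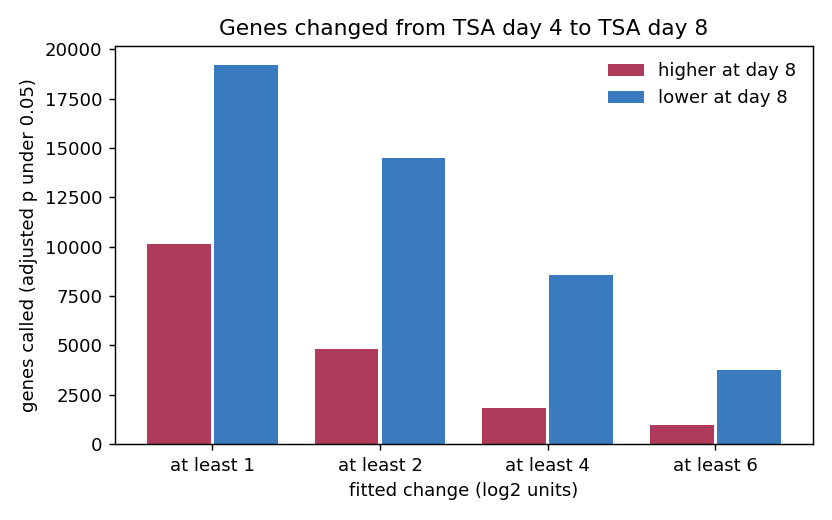
Number of genes called between TSA day 4 (3 libraries) and TSA day 8 (2 libraries), by the smallest fitted change counted, in log2 units. Bars show genes higher (red) and lower (blue) at day 8, and the blue bar is the taller one at each size, with 8552 against 1848 genes at 4 units or more.

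More genes were called lower than higher at every level, and the size of that excess varied, without a test of the difference between levels. Of 1383 genes with a mean of at least 100 CPM over the groups, 750 (54.2%) were called lower and 281 (20.3%) higher, with a median change of -1.29 log2 units. In the tier of 1 to 10 CPM, with 29237 genes, 25.3% were called higher and 33.2% lower, and in that of 10 to 100 CPM, with 19043 genes, 25.8% and 35.5%. The 14667 genes under 1 CPM had 16.7% higher and 36.2% lower, with a median of -1.43.

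Near-silent genes appeared at both ends. A gene was counted as switched on if it was called with a mean of at least 1 CPM at day 8 and under 0.1 CPM at day 4, a level under that of 3 counts in most of these libraries, and as switched off if the reverse held. By this rule 983 genes (1.53%) were switched on and 3185 (4.95%) switched off. The switched-on genes had a median of 3.06 CPM at day 8 and 0.0196 CPM at day 4. In the groups not used to choose them their median was 0.0180 CPM in fresh microspores, 0.0152 and 0.0275 CPM with heat alone at day 2 and day 4, and 0.0205 CPM in TSA day 2. At TSA day 2, 815 of the 983 (82.9%) were under 0.1 CPM and 0 reached 1 CPM. At day 0, 711 (72.3%) were under 0.1 CPM and 32 reached 1 CPM, and in heat-only day 4 the numbers were 719 (73.1%) and 47. Among all tested genes, 7.23% were under 0.1 CPM at TSA day 2, 18.3% at day 0 and 8.37% in heat-only day 4. Most of the genes that came on at day 8 were thus near or below detection at each of the other sampled stages.

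The switched-off genes had another history. Their median began at 0.159 CPM in fresh microspores and was 0.556 and 1.04 CPM with heat alone at day 2 and day 4. In the TSA cultures day 2 had 2.49 CPM, day 4 had 2.31 CPM and day 8 had 0.0191 CPM. A level of 1 CPM or more was found for 2629 of the 3185 (82.5%) in TSA day 2. In heat-only cultures 1371 (43.0%) reached that level at day 2 and 1613 (50.6%) at day 4, and in untreated microspores 1028 (32.3%) did, while 1459 were under 0.1 CPM there. Over all tested genes the share at 1 CPM or more ran from 60.9% at day 0 to 71.2% at TSA day 4, and was 64.3% at TSA day 8. As a share of the CPM of all tested genes, the switched-off genes held 2.11%, 2.11% and 2.12% in the day 4 libraries, and 0.00835% and 0.0168% in the day 8 libraries. The share was 2.53% to 2.62% at day 0, and 5.39% to 5.78% and 3.95% to 4.24% in heat-only day 2 and day 4. At TSA day 2 it was 1.83% to 2.69%. As a set, these genes thus held no smaller share without TSA than at TSA day 4, though their median was lower.

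**Figure D2:**
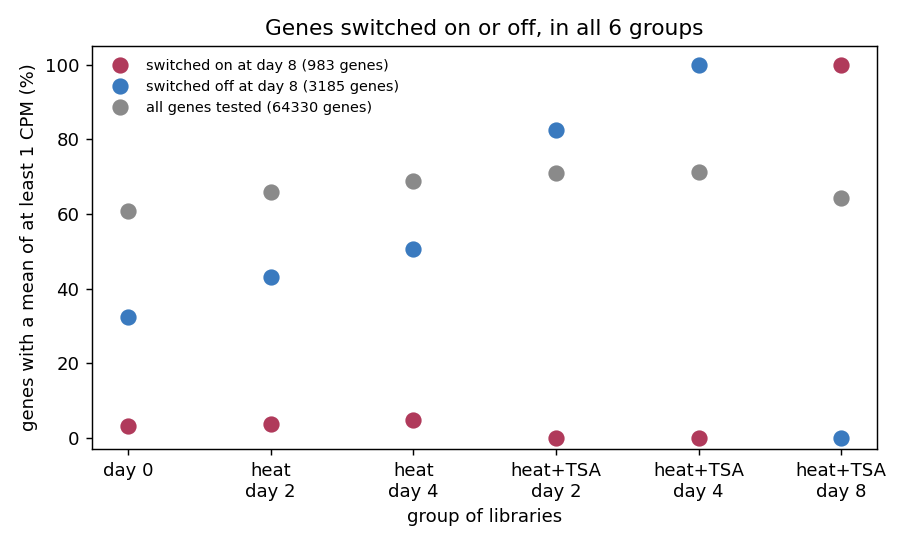
Share of genes with a group mean of at least 1 CPM (y axis, percent) in the 6 groups of libraries, for the genes switched on (red), the genes switched off (blue) and all genes tested (grey). The red and blue points at TSA day 4 and day 8 follow from how the genes were chosen; in the other groups the red points stay under 5% and the blue points run from 32.3% at day 0 to 82.5% at TSA day 2.

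Well-expressed genes were followed across the groups in the same way. There were 1659 genes that rose by at least 2 log2 units to 10 CPM or more at day 8. Their median level was 2.28, 2.35 and 2.43 CPM in the day 4 libraries and 23.2 and 22.9 CPM in the day 8 libraries. Together they held 1.08% to 1.09% of the CPM at day 4, and 12% and 11.8% at day 8. Their group medians were 2.25 CPM at TSA day 2, 0.757 CPM in fresh microspores, and 0.586 and 0.966 CPM with heat alone at day 2 and day 4. Of the 1659, 1651 (99.5%) were more than 1 log2 unit higher at day 8 than at TSA day 2, and 1539 (92.8%) than at day 0. The same held for 1577 against heat-only day 2 and 1583 against heat-only day 4, so most of these genes stood above every other sampled stage. Choosing genes for their rise to day 8 favours such an outcome, and the share over all tested genes was not computed.

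The 3092 genes that fell by at least 2 log2 units from 10 CPM or more at day 4 held 27.0%, 28.0% and 25.1% of the CPM in the day 4 libraries, and 1.88% and 2.66% in the day 8 libraries. In the 3 TSA day 2 libraries, of the run named for day 8, they held 19.1%, 21.7% and 21.1%. Heat-only libraries had 32.6%, 25.4% and 25.2% at day 2 and 42.6%, 40.8% and 41.7% at day 4. Day 0 libraries had 5.47%, 5.55% and 5.87%. The share was thus largest in heat-only day 4, though the median level was highest at TSA day 4. The median over these genes was 0.800 CPM in fresh microspores, and 3.89 and 9.15 CPM with heat alone at day 2 and day 4. With TSA it went from 19.7 CPM at day 2 and 25.6 CPM at day 4 to 1.69 CPM at day 8. Of these genes 3012 (97.4%) were more than 1 log2 unit lower at day 8 than at TSA day 2, and 2295 (74.2%) than in heat-only day 4. Against day 0 there was no single direction: 1245 (40.3%) were more than 1 unit higher at day 8, 992 (32.1%) more than 1 unit lower and 855 (27.7%) within 1 unit. These values describe genes chosen on the day 8 and day 4 libraries and were not tested.

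Individual genes show the extent of the rises. Names of function could not be given, because the reference lists only IDs for nearly all of these genes. The 12 rising and 12 falling genes with the largest fitted change were taken from the 2555 tested IDs that the reference lists, among those called by at least 1 log2 unit, with at least 10 CPM in the higher group and no overlap of libraries. Of all tested IDs, 4387 rising and 5128 falling genes met these conditions. The listed IDs were called at about the rate of all genes, 605 (23.7%) higher and 904 (35.4%) lower.

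BnaA06g27750D had no count in the 3 day 4 libraries and was at 24.2 and 27.9 CPM in the day 8 libraries. It was thus at least 212-fold higher at day 8, with day 4 set at 3 counts per library (adjusted p = 2.62e-08, edgeR quasi-likelihood test). At TSA day 2 it was at 0, 0.0307 and 0 CPM, so its signal stood above detection in both day 8 libraries and in neither earlier TSA group. BnaA07g20680D had no count at day 4 and was at 17.7 and 24.0 CPM at day 8, at least 170-fold higher (adjusted p = 1.53e-08, edgeR). BnaA07g04280D had no count in any of the other 15 libraries and was at 16.6 and 4.12 CPM at day 8, at least 84.3-fold higher (adjusted p = 0.00124, edgeR). Its day 8 replicates differed widely: the bound was 33.6-fold without day 8 replicate 1 and 135-fold without replicate 2. With DESeq2 its adjusted p was 0.0897. BnaC07g21380D had 3 counts in all at day 4 and was at 14.1 and 8.13 CPM at day 8, a ratio of 285 with a counting interval of 96.9 to 1386.

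BnaC05g44040D reached the highest level of the 12 at day 8. It was at 2.28, 1.59 and 3.09 CPM at day 4 and at 151 and 161 CPM at day 8, a log2 fold change of 6.05 ± 0.317 (SE; adjusted p = 8.33e-10, edgeR). It was at 1.29, 0.890 and 1.13 CPM at TSA day 2 and at 1.13, 1.11 and 1.31 CPM at day 0, so a low level at each earlier stage preceded the rise. BnaC03g71930D was at 0.223, 0.176 and 0.254 CPM at day 4 and at 30.5 and 31.7 CPM at day 8, a log2 fold change of 7.09 ± 0.361 (SE; adjusted p = 6.53e-10, edgeR). BnaC06g38680D was at 0.0278, 0.176 and 0.0363 CPM at day 4 and at 28.6 and 24.9 CPM at day 8, a log2 fold change of 8.59 ± 0.391 (SE; adjusted p = 2.66e-10, edgeR), or 9.48 without day 4 replicate 2. For these 3 genes the day 8 replicates lay close together and far from day 4.

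BnaC02g38630D was at 0.501, 0.412 and 0.254 CPM at day 4 and at 39.2 and 28.4 CPM at day 8, and BnaA09g52580D at 0.390, 0.529 and 0.327 CPM and at 28.5 and 17.6 CPM. BnaC04g54240D was at 0.0835, 0.0588 and 0.0363 CPM at day 4 and at 9.62 and 16.9 CPM at day 8. BnaA08g26490D was at 0.0835, 0.412 and 0.0727 CPM at day 4 and at 8.29 and 20.1 CPM at day 8. In BnaC09g09070D the day 8 libraries were furthest apart, at 8.08 and 45.2 CPM, against 0.0835, 0.118 and 0.218 CPM at day 4. Their log2 fold changes ran from 5.81 (BnaA09g52580D) to 7.62 (BnaC04g54240D), and the day 8 libraries did not overlap with day 4 in any of them, as the rule required. Leaving out 1 library moved BnaC09g09070D to between 5.8 and 8.3 (without day 8 replicate 2 or 1), and BnaA08g26490D to between 5.63 (without day 8 replicate 2) and 7.39 (without day 4 replicate 2).

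Among all IDs, listed or not, BnaC09g29220D and BnaA07g30980D had the highest fitted values by the same rule, which have no exact size because day 4 had no count of either. BnaC09g29220D had no count in the other 15 libraries and was at 188 and 45.7 CPM at day 8, at least 951-fold higher (adjusted p = 3.99e-04, edgeR). The replicates differed strongly: the bound was 372-fold without day 8 replicate 1 and 1531-fold without replicate 2. Without the filter on low counts its adjusted p was 0.0678. BnaA07g30980D had no count at day 4 and was at 82.0 and 135 CPM at day 8, at least 883-fold higher (adjusted p = 4.89e-10, edgeR). All 14 named rising genes were higher in both day 8 libraries than in every library of day 0, heat-only day 2, heat-only day 4 and TSA day 2. Their choice for the largest rises favours this, and the share over other rising genes was not computed.

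The named falling genes were high at TSA day 4 and mostly also at TSA day 2, and at or near 0 at day 8. BnaC01g22560D was the most abundant of them. It was at 333, 236 and 286 CPM at day 4 and at 0 and 0.916 CPM at day 8, a log2 fold change of -9.13 ± 0.973 (SE; adjusted p = 1.75e-06, edgeR). The size rests on the 24 counts of day 8 replicate 2: it was -8.27 without replicate 1 and -15.6 without replicate 2, where day 8 has no count and the fitted value no exact size. At TSA day 2 it was at 413, 495 and 347 CPM and at day 0 at 0.0270, 0.503 and 0 CPM, so it was high in both earlier TSA groups and near silent at the start and at day 8. Heat-only cultures lay between, at 10.3 to 47.3 CPM.

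BnaA03g00980D was at 41.6, 37.5 and 35.7 CPM at day 4 and had no count at day 8, at least 279-fold lower with day 8 set at 3 counts per library (adjusted p = 7.07e-07, edgeR). It was at 7.65, 21.1 and 9.19 CPM at TSA day 2, had no count at day 0 and was at 0 to 0.353 CPM in heat-only cultures. BnaA06g27990D was at 68.9, 60.4 and 65.8 CPM at day 4 and at 0 and 0.267 CPM at day 8, a log2 fold change of -8.68 ± 0.567 (SE; adjusted p = 7.51e-09, edgeR). Likewise it was -7.9 without day 8 replicate 1 and -13.4 without replicate 2. It had been lower at TSA day 2, at 9.33, 15.7 and 15.3 CPM, so its level was higher at day 4 than on either side. BnaCnng66800D had the same order, with 12.5, 26.5 and 12 CPM at TSA day 2, 77.1, 43.2 and 40.7 CPM at day 4 and 0.106 and 0.191 CPM at day 8.

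The other 8 listed falling genes each had 1 count at day 8, in replicate 2, so their ratios carry wide counting intervals, and without that library day 8 has no count of them. BnaA06g30740D, at 50.1, 34.7 and 27.7 CPM at day 4, had the largest ratio, 1767 with an interval of 317 to 69811. BnaC06g33620D, at 14.3, 11.2 and 5.49 CPM at day 4, had the smallest, 479 with an interval of 85.8 to 18957. BnaC09g43320D had been higher at TSA day 2 (22, 37.8 and 27 CPM) than at day 4 (14.5, 15.9 and 8.14 CPM). BnaC08g23940D had been low at TSA day 2 (0.677, 1.66 and 0.908 CPM) and was at 9.99, 11.5 and 11.4 CPM at day 4. BnaC06g35740D was at 14.9, 15.1 and 11.1 CPM at TSA day 4. In heat-only cultures it was at 16.0 CPM in replicate 1 and 2.85 and 1.96 CPM in the other two at day 2, and at 16.9, 0.401 and 1.16 CPM at day 4, so replicate 1 stood apart at both days. BnaC04g26480D, BnaC09g45170D and BnaC03g33200D ran from 8.35 to 21.9 CPM at TSA day 4.

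Among all IDs, BnaC09g44940D and BnaC01g04790D had the lowest fitted values. Both had no count at day 8, so fitted values place them first without giving an exact size. BnaC09g44940D was at 119, 124 and 56.6 CPM at day 4 and had no count at day 8, at least 731-fold lower (adjusted p = 1.07e-07, edgeR). BnaC01g04790D was at 133, 99.6 and 36.5 CPM at day 4 and had no count at day 8, at least 655-fold lower (adjusted p = 2.72e-06, edgeR). At TSA day 2 they were at 18.2, 31.6 and 18.2 CPM and at 7.62, 15.7 and 2.27 CPM, below day 4 in every library. All 14 named falling genes, chosen for the largest falls, lay below every TSA day 2 library at day 8. Against day 0 only BnaC09g43320D did, the others being at or near 0 in at least 1 day 0 library.

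**Figure D3:**
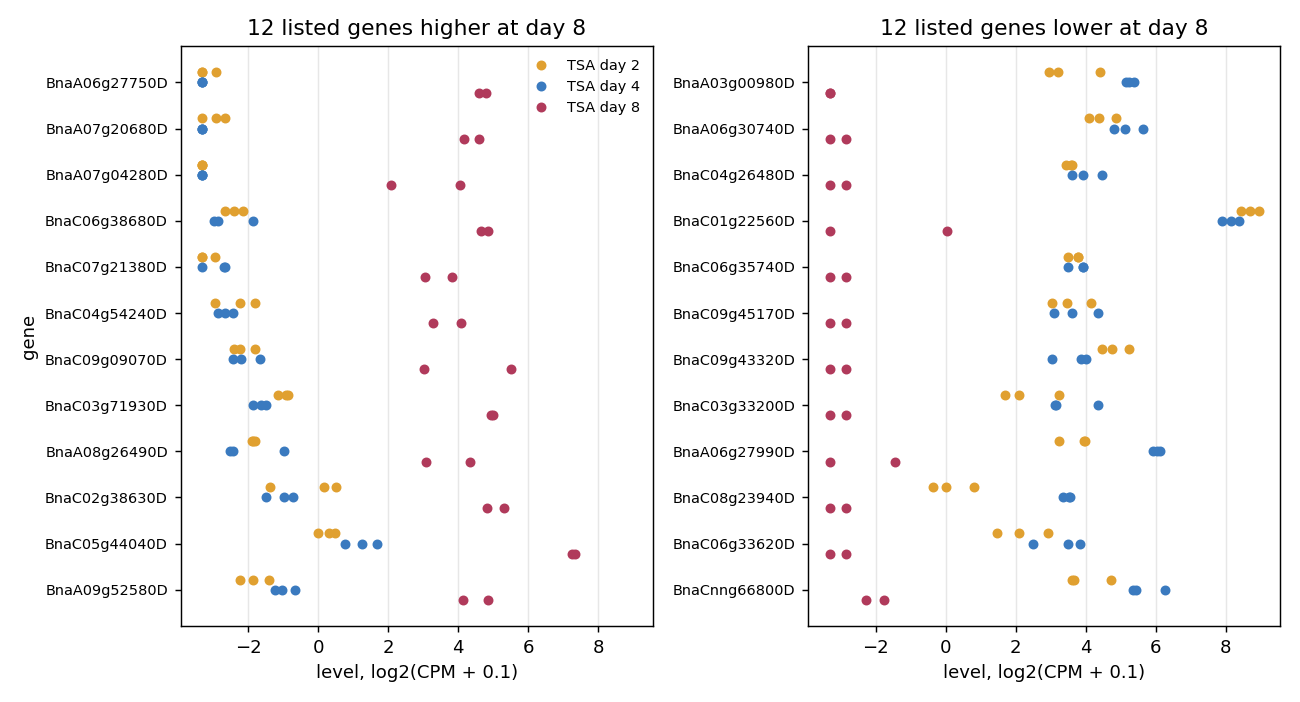
Level of the 12 listed rising genes (left) and the 12 listed falling genes (right) in each library of TSA day 2, day 4 and day 8, as log2(CPM + 0.1) on the x axis, with 1 point per library. Day 8 points are separate from the points of both earlier days in each gene, and a library with no count lies at the left edge of the points.

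KCP1 and TR1 were the only genes for which the reference gave another name. KCP1 (BnaA02g32290D) encodes a protein known to interact with HDA19, a histone deacetylase of Arabidopsis. It was at 3.48, 2.23 and 3.02 CPM at day 4 and at 4.94 and 6.14 CPM at day 8, a rise of 0.919 ± 0.289 log2 units (SE; adjusted p = 0.0121, edgeR). Both day 8 libraries lay above the day 4 libraries and above TSA day 2, which was at 1.77, 1.78 and 2.04 CPM. Heat-only libraries were at 0.134 to 0.496 CPM and day 0 libraries at 1.05 to 2.10 CPM, all below day 8. The call was lost without day 8 replicate 2 (0.74 log2 units, adjusted p = 0.0974) and without day 4 replicate 2 (0.769 log2 units, adjusted p = 0.0532, edgeR). TR1 (BnaCnng15100D) was at 10, 11.5 and 11.7 CPM at day 4 and at 5.90 and 8.82 CPM at day 8. Its log2 fold change of -0.581 ± 0.250 (SE) did not pass the test (adjusted p = 0.0560, edgeR), though its groups did not overlap. It passed with no filter on low counts (adjusted p = 0.0333), with DESeq2 (0.0495) and without day 8 replicate 2 (0.0227).

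The number of genes detected was lower in both day 8 libraries than in any day 4 library. With every library thinned to 2716279 counts, 57993, 58184 and 58393 genes had at least 1 count at day 4 and 51597 and 50839 at day 8. The difference was -6972 genes, with an exact two-sided permutation p of 0.2, the smallest that 2 against 3 libraries allow. TSA day 2, of the run named for day 8, had 59394 ± 232 (SD, n = 3), and the groups without TSA were near day 8: day 0 had 51879 ± 855, heat-only day 2 52584 ± 652 and heat-only day 4 51226 ± 1328 (SD, n = 3 each). The difference lay mostly in genes with few counts. For genes with at least 10 counts it was -1276, from 33674 at day 4 to 32398 at day 8, and it was -1820 without day 8 replicate 1 and -733 without replicate 2.

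The most abundant genes also held a smaller share of the RNA in both day 8 libraries. The 100 most abundant genes of each library held 13.65%, 14.67% and 12.74% of its counts at day 4 and 9.349% and 9.783% at day 8, a difference of -4.12 percentage points. The exact two-sided permutation test gave p = 0.2, again the lowest value possible. TSA day 2 was at 10.2% ± 0.637 (SD, n = 3), close to day 8, and heat-only day 4 at 36.7% ± 0.252 (SD, n = 3). The identity of the leading genes changed too. The 100 genes with the highest group mean at day 4 and at day 8 had 19 in common. Of the 100 of day 8, 73 were called higher at day 8 and 10 lower, and 1 was under 1 CPM at day 4. Of the 100 of day 4, 88 were called lower and 2 higher, and 2 were under 1 CPM at day 8. Choosing each list for a high mean on its own day favours these directions. For comparison, the whole test put 23.4% of genes higher at day 8 and 35.0% lower. At a mean of at least 100 CPM over the groups, these shares were 20.3% and 54.2%. The 100 of day 4 held 13.6%, 14.6% and 12.5% of counts at day 4, 3.51% and 4.31% at day 8 and 9.35%, 10.1% and 8.54% at TSA day 2. The 100 of day 8 held 9.13% and 9.53% at day 8, 5.88%, 6.32% and 6.22% at day 4 and 5.32%, 5.32% and 4.69% at TSA day 2. As a group, the leading genes of day 8 thus held much of their share already at day 4. That group includes the 19 genes common to both lists, and the share was not split between these and the others.

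B. napus carries an A and a C subgenome, from B. rapa and B. oleracea, and the gene IDs name the chromosome and the order of the genes along it. How reads shared by near-identical A and C copies were counted is not given in the sources used here, so a value for one copy may include reads of the other. The shares called were similar in both subgenomes, without a test of the difference. Of 30665 A genes 24.6% were called higher and 34.7% lower, with a median change of -0.248 log2 units. Of 33471 C genes 22.3% were higher and 35.2% lower, with a median of -0.320. Switched-on genes numbered 490 (1.60%) in A and 489 (1.46%) in C, and switched-off genes 1573 (5.13%) and 1600 (4.78%). Among chromosomes the median ran from -0.152 (A06) to -0.594 (C02). On C02 18.1% were called higher and 37.9% lower, against 23.4% and 35.0% of all tested genes.

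Falling genes were grouped along some chromosomes. Tested genes were taken in 1904 windows of 30 neighbours by ID, and the median change of a window was -0.266 log2 units in the middle of the range, with 5% of windows below -1.28 and 5% above 0.307. Only 1 window had a median of 1 or more, BnaC07g32510D to BnaC07g32870D (median 1.24), where 17 of 30 genes were called higher by at least 1 log2 unit and 2 lower. Of the 21 windows at -2 or below, 14 lay on chromosome C04. The lowest, BnaC04g00980D to BnaC04g01550D, had a median of -5.66, with 24 of 30 genes called lower.

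The start of C04 was low at day 8 as a block. Over the first 12 windows, BnaC04g00010D to BnaC04g06730D, 227 of 360 genes (63.1%) were called lower and 21 higher, with a median change of -2.95 log2 units, where 35.0% of all genes were called lower. The median level of the 360 genes was 1.39, 1.38 and 1.89 CPM in the day 4 libraries and 0.0531 and 0.0954 CPM in the day 8 libraries. TSA day 2 libraries were at 1.49, 1.52 and 1.73 CPM and day 0 libraries at 1.89, 1.92 and 1.31 CPM. Heat-only libraries were at 1.71, 4.86 and 4.67 CPM at day 2 and at 1.59, 4.41 and 4.67 CPM at day 4, so heat-only replicate 1 was below the other two at both days. The median of the block was thus under 0.1 CPM in both day 8 libraries and at 1.31 CPM or more in every other library, where it also varied. Not all of its genes were low at day 8. There 92 and 98 of the 360 were at 1 CPM or more, against 204, 202 and 228 at day 4. The summed level of the block was 796 and 700 CPM at day 8 and 1515, 1404 and 1691 CPM at day 4. C04 genes outside this block and the shorter one described below were at 2.68 to 2.82 CPM at TSA day 2. At TSA day 4 they were at 2.94 to 3.06 CPM, so the block was below them on both days. Genes with fewer than 3 counts made up 53.90% and 53.60% of the block at day 8, 12.20% to 15.30% at day 4 and 11.40% to 12.50% at TSA day 2.

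A shorter block near the other end of C04, BnaC04g51920D to BnaC04g53640D, had 64 of 90 genes (71.1%) called lower, 3 higher and a median of -3.76. Its median level was 1.53, 1.53 and 1.98 CPM at day 4, 0.0531 and 0.115 CPM at day 8, 1.52, 1.37 and 1.53 CPM at TSA day 2 and 1.56, 1.67 and 1.18 CPM at day 0. In heat-only cultures replicate 1 was again below the other two, at 1.42 against 3.33 and 3.39 CPM at day 2 and at 1.41 against 3.81 and 3.96 CPM at day 4. Over the rest of C04 the values were close to those of all genes. Its 2774 genes had a median change of -0.168, with 26.2% called higher and 31.8% lower, and median levels of 2.94 to 3.06 CPM at day 4 and 2.60 and 2.67 CPM at day 8. At the start of another chromosome, A05, the first 12 windows changed less than the C04 blocks, though more than all genes tested. Of their 360 genes, 158 (43.9%) were called lower and 54 higher, with a median of -0.761. Over all genes tested 35.0% were called lower, with a median of -0.288. The median level of the A05 genes was 6.45, 6.50 and 6.58 CPM at day 4 and 4.52 and 4.41 CPM at day 8. At TSA day 2 it was 5.72, 6.01 and 6.50 CPM. In heat-only cultures replicate 1 was above replicates 2 and 3 in A05 at both days, with 4.54 against 2.91 and 2.94 CPM at day 2. This order was the reverse of that in the C04 blocks, and a link between the regions was not tested.

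**Figure D4:**
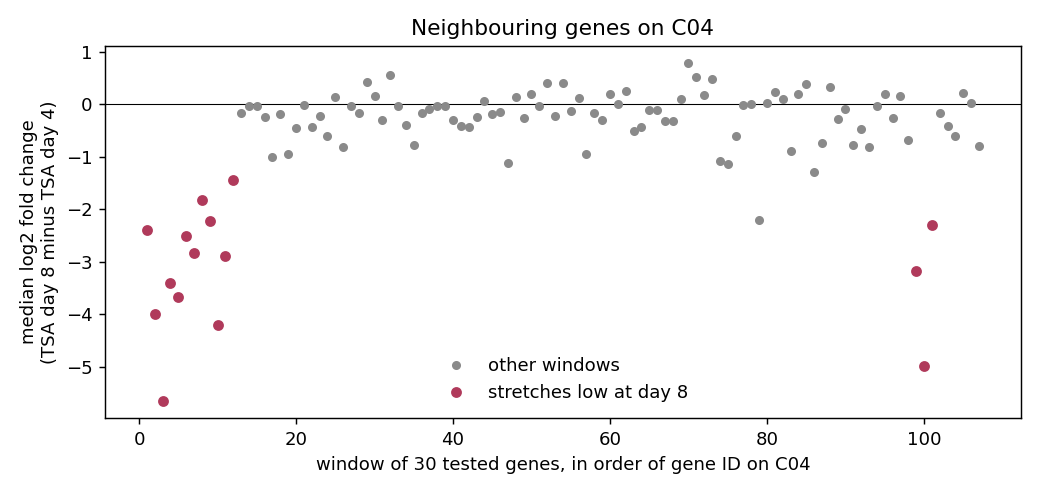
Median log2 fold change of TSA day 8 against TSA day 4 (y axis) in each window of 30 tested genes along chromosome C04, in order of gene ID (x axis). Red points mark the blocks at the start, with a median of -2.95 over 360 genes, and near the end, with -3.76 over 90 genes; grey points are the other windows.

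**Figure D5:**
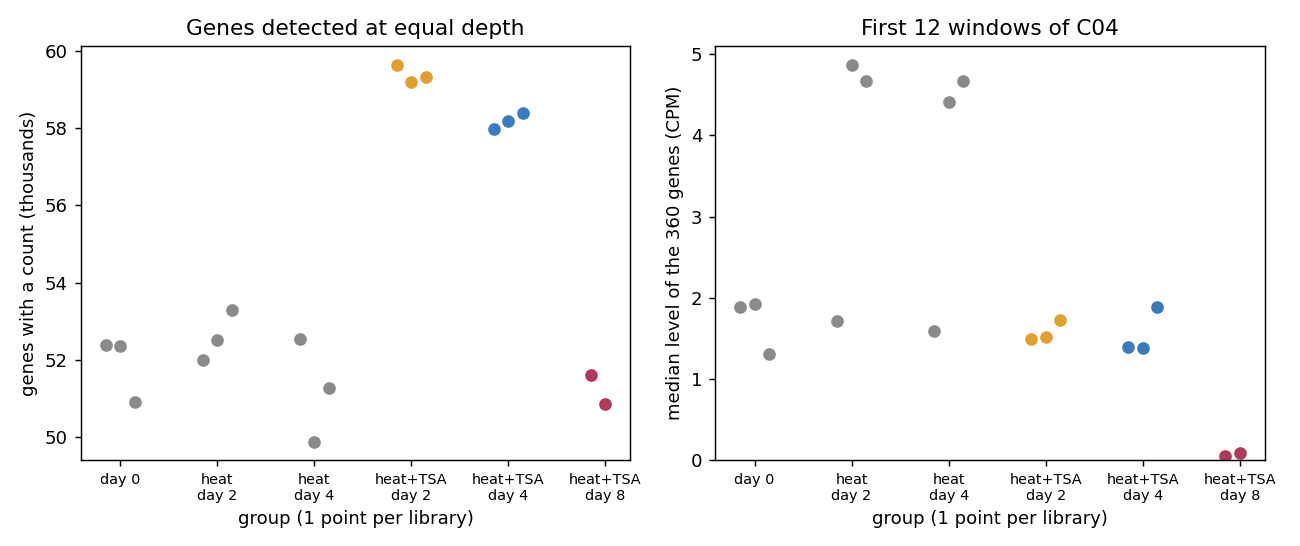
Values per library in the 6 groups. Left, genes with a count after thinning to 2716279 counts (y axis, in units of 1000 genes, not starting at 0), with the day 8 points below all day 4 points; right, the median level in CPM of the 360 genes at the start of C04, with the day 8 points at 0.0531 and 0.0954 CPM.

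Elsewhere, stretches of at least 3 adjacent windows at a median of -1 or below were milder. There were 7 of them. Chromosome C02 held 4, with medians of -1.31 to -1.48, A07 held BnaA07g00010D to BnaA07g01750D (-1.24), A09 held BnaA09g45430D to BnaA09g46670D (-1.58) and C09 held BnaC09g47810D to BnaC09g48990D (-1.12). Between 49.2% and 58.9% of their genes were called lower.

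On a finer scale, runs of at least 5 tested neighbours that were called by at least 1 log2 unit in the same direction numbered 21 for rising genes and 161 for falling genes outside the C04 blocks, with 20 more inside them. The background was 15.8% of tested genes called higher and 29.9% lower by that size. The longest rising run held 8 genes, BnaA06g31170D to BnaA06g31250D. Their median was 4.19 CPM at day 4, 24.8 CPM at day 8, 2.01 CPM at TSA day 2 and 0.372 CPM at day 0. A rising run of 6 genes, BnaA10g00670D to BnaA10g00720D, had a median of 1.98 CPM at day 4 and 15.9 CPM at day 8, and 1.69 CPM at TSA day 2. The longest falling run outside C04 held 13 genes, BnaC07g38040D to BnaC07g38200D, with a median of 2.20 CPM at day 4, 0.0382 CPM at day 8, 1.90 CPM at TSA day 2 and 0.0479 CPM at day 0. Of 2 falling runs of 9 genes, one, BnaA03g31440D to BnaA03g31540D, had medians of 4.73 CPM at day 4, 0 CPM at day 8, 3.35 CPM at TSA day 2 and 0.123 CPM at day 0. The other, BnaC03g28160D to BnaC03g28300D, had medians of 3.88 CPM at day 4, 1.75 CPM at day 8, 3.10 CPM at TSA day 2 and 3.74 CPM at day 0. The runs on C07 and A03 were thus low before culture and that on C03 was not.

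In the authors' deposited table for this comparison, 39029 of 68491 genes had a false discovery rate under 0.05, 13987 of them higher at day 8 and 25042 lower, a share of 35.8% higher. Of the 63481 genes that the authors' deposited table and the test here had in common, 34907 were called in both, 0 of them in opposite directions.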

How the data were processed

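The authors deposited raw counts per gene, per the file headers. They also deposited their own comparisons as log2 fold changes with adjusted p-values (false discovery rates), used here only side by side. Limma is named in the submitters' processing notes. The table lists 101040 gene IDs, 12381 of them without a count, and 64330 passed filterByExpr. The sources used here do not give the aligner, counter, build or annotation. Genes were tested with edgeR 4.0.16 (R 4.3.3), quasi-likelihood, robust, with TMM scaling and 1 coefficient per group over all 17 libraries, with Benjamini-Hochberg adjustment. The test was also run on simulated counts in which few genes changed, so that run cannot speak to the wide change seen here. The SE is the absolute log2 fold change divided by the square root of F. Intervals and detection limits cover counting error only. The series design calls replicates biological. Day 8 has 2 libraries.

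The comparison, gene lists and rules were chosen with earlier results of these data known. Named genes were to be picked among IDs with a reference description. The reference (Da-Ae) listed 3347 IDs and gave no descriptions or promoters, so the planned lists by function and promoter motifs were not analysed, and the stated fallback, the 12 rising and 12 falling among listed IDs plus 2 of each among all IDs, was used. No sequence or coordinate is printed. Thinning drew counts without replacement. No pair of libraries of a group agreed within sampling noise. Alternatives were other scalings, no filter, DESeq2 1.42.0, fewer libraries in the fit, a replicate block and leaving out each library.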

Additional observations from a re-analysis of the deposited data

How the results depend on the processing

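The number of genes called, 37574, was 36651 to 38155 with RLE, upper-quartile or library-total scaling, no filter, DESeq2, or the 8 TSA libraries alone, 31436 with the 5 compared libraries alone, and 32633 to 34683 leaving out 1 library each. The share of calls higher at day 8, 40.0%, moved to 40.8% (RLE scaling), 43.9% (upper quartile), 45.3% (library totals alone), 36.7% with no filter, 44.5% in the 5 libraries and 46.4% in the 8 TSA libraries, and ran from 38.8% to 42.0% leaving out 1 library each. The median change of all genes was -0.0852 log2 units in the 5 libraries. The median of the C04 blocks, -3.1, ran from -3.54 to -2.79 leaving out 1 library each, and without the blocks 37245 genes were called (chosen after seeing the data). The cause of these moves was not tested. No result reversed.

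The labels give no link between same-numbered libraries beyond the number. Deviations from the group means correlated at 0.197 for replicates 1 and 0.0168 for replicates 2, the only shared numbers. With 2 day 8 libraries the deviations of 1 mirror those of the other, so these values cannot decide whether same-numbered libraries share an origin. Heat-only replicate 1 stood apart at both days in the C04 blocks, in A05 and in BnaC06g35740D, as given above. With a replicate block 36834 genes were called, 39.1% of them higher. Over the named genes, 7 values crossed the test's threshold under an alternative, all for the 4 genes given with them above; DESeq2 gave BnaC06g35740D no adjusted p. Depth limits genes near 3 counts, so fitted changes of genes at 0 carry no exact size.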
